A study of Chlorocebus sabaeus with 32 samples.

Results

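Corticosteroid receptors and the genes that corticosteroids are known to switch on were examined in hippocampal RNA of vervet monkeys (Chlorocebus sabaeus). The set has 9 genes, taken by symbol from the 33994 gene rows of the count table, and all 9 were among the 19959 genes that passed the filter on low counts. They are the receptors NR3C1 and NR3C2, the steroid-activating enzyme HSD11B1, and the response genes FKBP5, TSC22D3, ZBTB16, PDK4, SGK1 and ERRFI1. The study followed the developing hippocampal transcriptome with 32 ribosomal RNA-depleted, stranded total RNA libraries, here taken as 1 animal each. All 32 monkeys carry the same age class, under 1 year, with no treatment, genotype or control group, so the libraries form a single group. The titles open with 2010 in 16 libraries, 2011 in 2 and 2009 in 14, and go on with a number above 20000 in 11 libraries and below it in 21; what the prefix and the number mean is not stated. Libraries are named by replicate numbers 1 to 32, which follow the order of the titles, and p-values measure only the spread between these libraries.

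Cortisol, the main glucocorticoid of primates, acts through a pair of related nuclear receptors. The mineralocorticoid receptor NR3C2 binds it with high affinity and is abundant in hippocampal neurons, and the glucocorticoid receptor NR3C1 binds it with lower affinity in most cell types. HSD11B1 regenerates active cortisol from cortisone inside cells. Bound receptors enter the nucleus and raise transcription of targets such as FKBP5, a co-chaperone that lowers the affinity of the receptor for its hormone, and TSC22D3 (GILZ), a leucine zipper protein with anti-inflammatory action. ZBTB16 (PLZF) is a zinc finger repressor, PDK4 a kinase that holds back pyruvate dehydrogenase, SGK1 a kinase best known for ion channel control, and ERRFI1 (MIG6) an inhibitor of the EGF receptor.

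Values are gene counts relative to library size (CPM) after trimmed mean of M-values (TMM) scaling. CPM is not divided by transcript length, so levels are compared between libraries and never between genes. Depth ran from 9347635 to 19673621 gene counts, with a median of 16201657, and 3 counts correspond to 0.152 to 0.321 CPM; every member lay above that floor in every library. Libraries 1 and 16 stood apart, which was seen only after the values had been examined. The dentate granule neuron list (PROX1, DSP, C1QL2, CALB1, PDYN; 5 of 5 rows, none at 0) summed to 111 CPM in library 1 and 190 CPM in library 16, against 232 to 599 CPM in the other 30. Library 1 also had the lowest depth and 111 CPM of the cortical neuron gene CUX2, against 8.28 to 27.2 CPM in the other 30. Library 16 had 456 CPM of the striatal peptide gene PENK, against 9.18 to 162 CPM. Results that rest on these libraries are therefore given with and without them, and whether they hold tissue that the others lack was not tested.

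NR3C2 and FKBP5 were far lower in these libraries than in the others. NR3C2 ranged from 111 to 181 CPM in the other 30 libraries, with a median of 155 CPM, while library 1 had 42.3 CPM and library 16 had 37.8 CPM, which are 0.273 and 0.244 of that median. Without this pair NR3C2 averaged 153 ± 15.5 CPM (SD, n = 30), and its highest library was 1.64 times its lowest. NR3C1 went the other way in the same libraries: library 1 had the highest value of all, 113 CPM, and library 16 had 102 CPM. In the other 30 it ran from 48.1 CPM in library 15 to 103 CPM in library 30, with a median of 79.5 CPM. In bulk tissue, fewer cells of a type and less RNA of a gene per cell cannot be told apart. Whether strand was used in counting is not known, and in the RefSeq gene table of assembly mChlSab1.0.hap1 both receptor genes overlap another gene, NR3C1 a protein-coding one and NR3C2 a small nuclear RNA. Part of their counts may therefore belong to the neighbour.

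**Figure D1:**
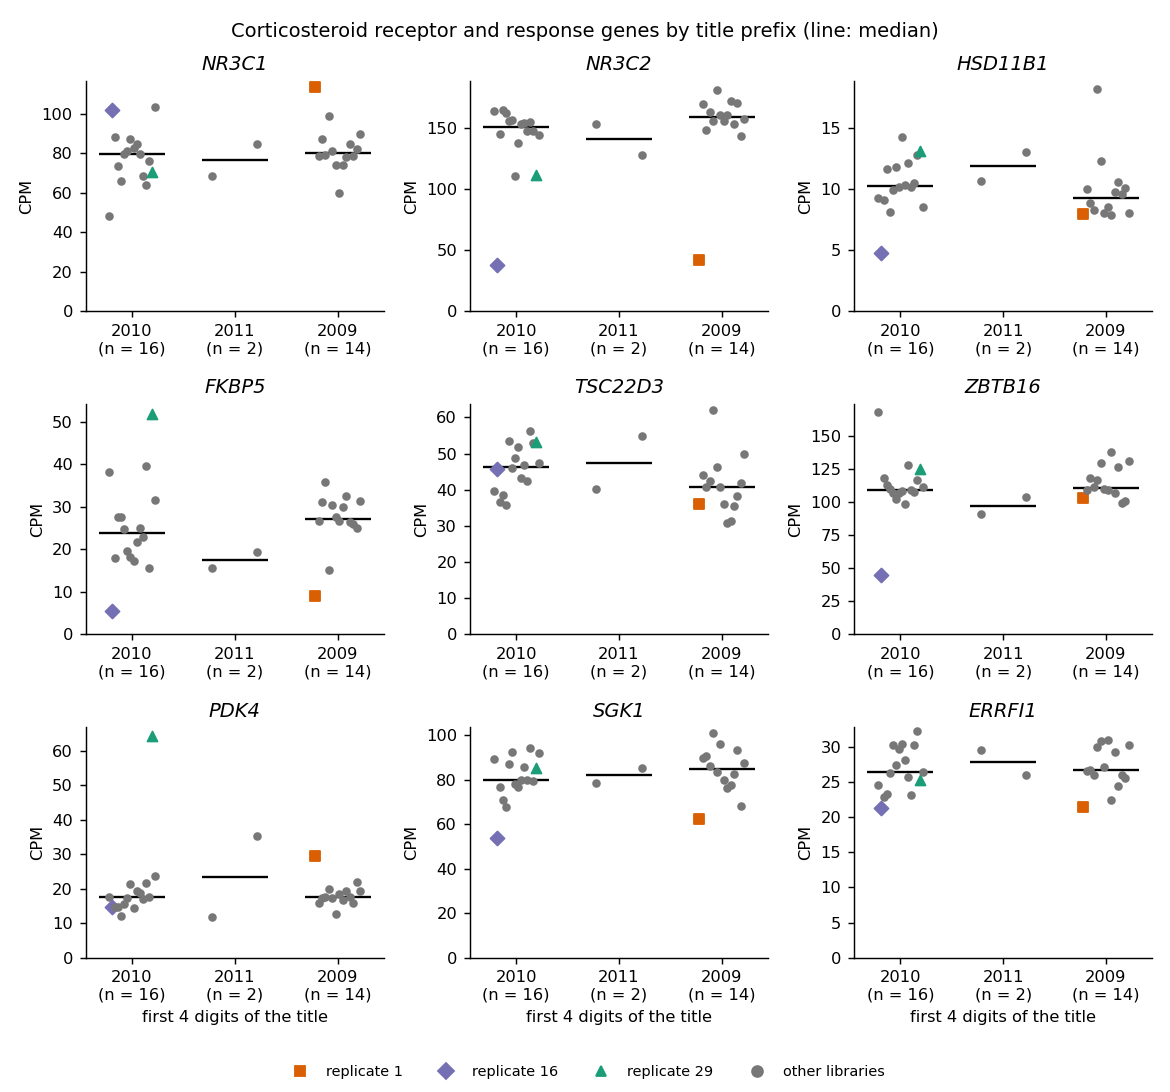
CPM of the 9 members in every library, by the first 4 digits of the title (2010, n = 16; 2011, n = 2; 2009, n = 14), with a line at the median and the vertical axes starting at 0. Libraries 1 and 16 lie far below the rest for NR3C2 (42.3 and 37.8 CPM), and library 29 lies far above for PDK4 (64.1 CPM).

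The NR3C2 to NR3C1 ratio in CPM gives the balance of the receptors in a library without its depth; since it is not per length, only its differences between libraries are read. It was 0.373 in library 1 and 0.371 in library 16, and ran from 1.27 to 3.41 in the other 30, with a median of 1.94 and a mean of 1.99 ± 0.421 (SD, n = 30). The highest ratio, 3.41, belonged to library 15, which held the lowest NR3C1 of all. The lowest of the 30, 1.27, belonged to library 22.

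Titles with 2010 and 2009 overlapped throughout in this ratio. It had a low of 0.371, a median of 1.92 and a high of 3.41 in the 16 libraries with 2010, was 1.51 and 2.24 in those with 2011, and had a low of 0.373, a median of 2.10 and a high of 2.60 in the 14 with 2009. The mean log2 ratio was 0.80 ± 0.69 for 2010 and 0.83 ± 0.68 for 2009 (SD), a difference of -0.03 with p = 0.886 in a two-sided permutation test. Without libraries 1 and 16 the means were 0.95 ± 0.35 for 2010 (n = 15) and 1.00 ± 0.21 for 2009 (n = 13), and the difference of -0.06 had a permutation p of 0.630. No difference in receptor balance between the title prefixes was detected.

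**Figure D2:**
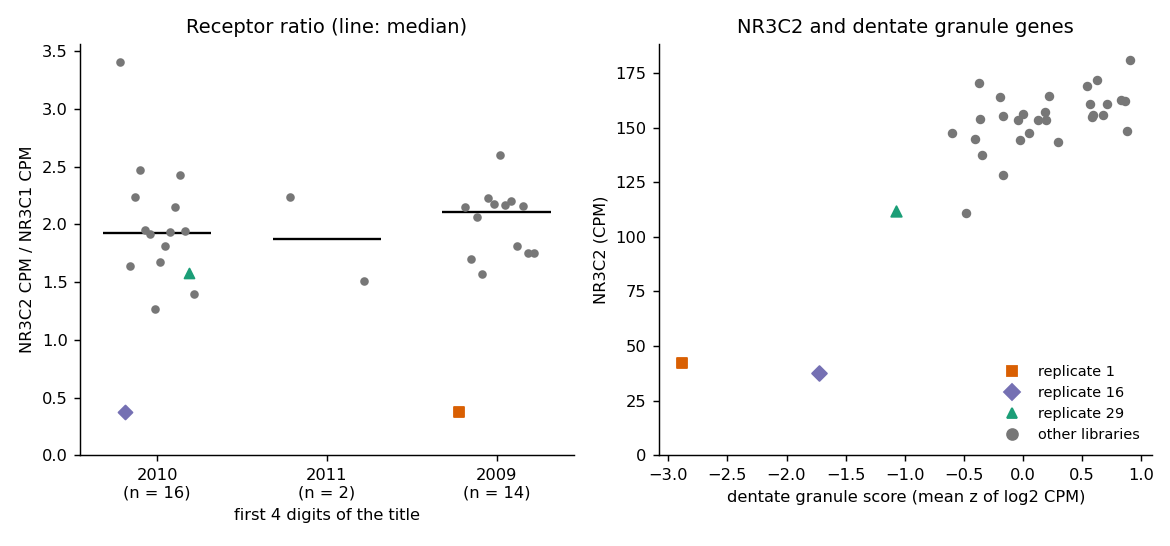
Left, NR3C2 CPM divided by NR3C1 CPM in each library by the first 4 digits of the title, with a line at the median. Right, NR3C2 CPM against the dentate granule score, the mean z of log2 CPM over the list, in 32 libraries. Libraries 1 and 16 have both the lowest ratios (0.373 and 0.371) and the lowest scores.

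HSD11B1, the enzyme that makes cortisol within the tissue, had a low of 4.77 CPM in library 16, a median of 10.1 CPM and a high of 18.2 CPM in library 5. Library 1, at 8.01 CPM, lay within the range of the other 30, which ran from 7.90 to 18.2 CPM. Library 5 stood above the next highest, 14.3 CPM in library 23.

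Among the response genes, FKBP5 varied most between libraries with all 32 included, and PDK4 without libraries 1 and 16. FKBP5 ran from 5.61 CPM in library 16 and 9.01 CPM in library 1 to 51.9 CPM in library 29, with a median of 26.2 CPM over 32 libraries. Without libraries 1 and 16 it averaged 26.7 ± 8.13 CPM (SD, n = 30), and its highest library was 3.43 times its lowest, 15.1 CPM in library 5. FKBP5 overlaps a pair of pseudogenes in the RefSeq table, so its counts share the uncertainty on strand. PDK4 had 64.1 CPM in library 29 and lay at 11.7 to 35.2 CPM in the other libraries, library 1 (29.5 CPM) and library 16 (14.7 CPM) included, with a median of 17.5 CPM over all 32. Library 29 was thus highest for both of these genes.

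The other response genes kept to narrower ranges. ZBTB16 ran from 90.7 to 168 CPM with a median of 110 CPM in the 30 libraries, while library 16 had 45.0 CPM and library 1, at 103 CPM, lay within the range. SGK1 ran from 67.9 to 101 CPM in those 30, and libraries 1 and 16 lay below with 62.3 and 53.8 CPM. TSC22D3 ran from 30.7 CPM to 62.1 CPM in library 5, with a median of 42.9 CPM over all 32, and neither library 1 (36.1 CPM) nor library 16 (45.8 CPM) left that range. ERRFI1 was the most even, with 21.3 to 32.3 CPM and a median of 26.6 CPM.

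No library was high in all response genes. Of the 6, library 27 was among the 3 highest for FKBP5 (39.7 CPM), TSC22D3 (56.1 CPM) and SGK1 (94.4 CPM). Libraries 5, 15, 29 and 32 were among the 3 highest for 2 genes each, in 4 different pairings: TSC22D3 and SGK1 in library 5, FKBP5 and ZBTB16 in library 15, FKBP5 and PDK4 in library 29, and TSC22D3 and PDK4 in library 32. At the other end, library 16 was among the 3 lowest for 4 of the 6 and library 1 for 3.

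**Figure D3:**
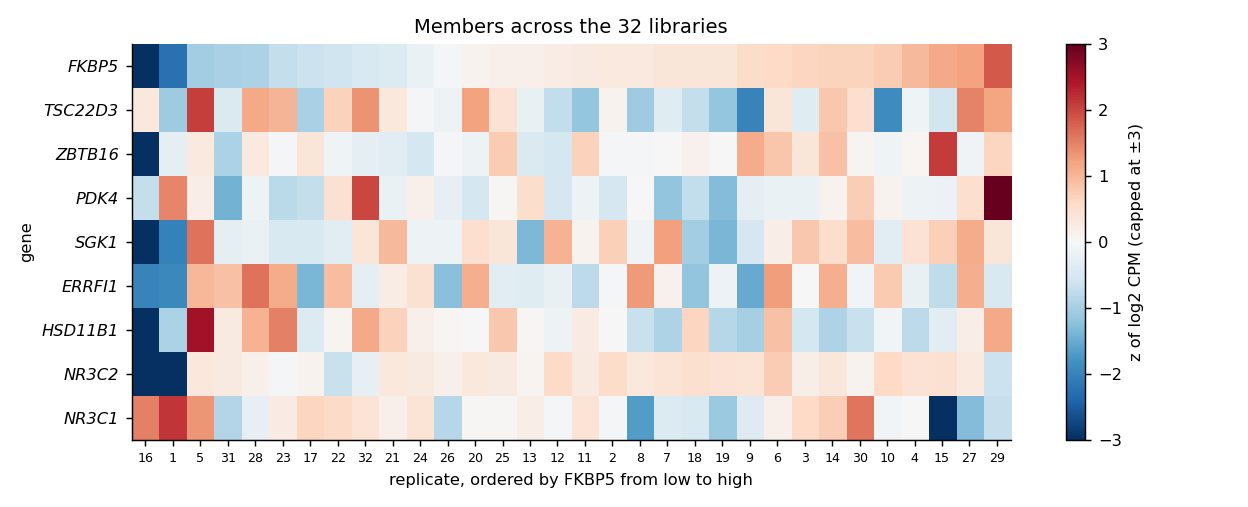
Each member's log2 CPM in the 32 libraries as z values (colour, capped at 3 either way), with libraries ordered from left to right by FKBP5. The row of TSC22D3 does not follow the order of FKBP5, and libraries 16 and 1, at the left end, are low in FKBP5, SGK1 and NR3C2 and high in NR3C1.

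The spread between animals was set against that of all 19959 genes by the biological coefficient of variation, the part of the variation that counting error does not explain. Its median over all genes was 0.157. FKBP5 had 0.366, higher than 94.7% of genes, and PDK4 had 0.337, higher than 92.8%. NR3C2 had 0.275, at the 86.3rd percentile, but 0.110, at the 25.9th, without libraries 1 and 16, so its spread rested on that pair. FKBP5 stayed at the 89.7th percentile without them. PDK4 was at the 94.6th percentile without libraries 1 and 16 and at the 76.4th, with 0.207, when library 29 was left out too. NR3C1 (51.9th percentile) and TSC22D3 (54.8th) lay near the middle of all genes, and SGK1 (33.5th) and ERRFI1 (21.8th) below it.

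Titles with 2010 were then compared with titles with 2009. None of the 9 members was called by edgeR's quasi-likelihood test at an adjusted p under 0.05, where 14.6% of all genes tested were (2917 of 19959). Without libraries 1 and 16 again none of the 9 was called, against 18.2% of all genes (3663 of 20076). Over all genes the calls were 1588 higher and 1329 lower with 2010 under TMM scaling, but 2290 higher and 936 lower with library totals alone, a scaling that moved the median of all genes by 0.035 on the log2 scale. Immature neuron markers moved with the prefix: that list (9 of 10 genes in the table, none at 0) summed to 810 to 2140 CPM, median 1360, with 2010, to 1850 and 2140 CPM with 2011, and to 687 to 1240 CPM, median 808, with 2009. With the score of that list in the fit, no gene of the transcriptome was called (1331 had an unadjusted p under 0.05). Because the score and the prefix ran together, that fit cannot tell them apart, and the cause of the prefix differences was not tested.

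TSC22D3 came nearest to a call. It had a low of 35.7 CPM, a median of 46.4 CPM and a high of 56.1 CPM in the 16 libraries with 2010, was 40.3 and 54.8 CPM with 2011, and had a low of 30.7 CPM, a median of 40.8 CPM and a high of 62.1 CPM in the 14 with 2009. The groups overlap, and the highest value of all belongs to the lower group, in library 5. The log2 difference was 0.16 ± 0.08 (SE; edgeR adjusted p = 0.193). It was 0.22 with adjusted p = 0.0452 without library 5, the single library whose removal led to a call of any member, and 0.22 ± 0.08 with adjusted p = 0.0554 without libraries 1, 5 and 16. Among low-number libraries alone, 7 with 2010 and 14 with 2009, it was 0.04 ± 0.10.

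The receptors differed less. NR3C1 had a low of 48.1, a median of 79.8 and a high of 103 CPM with 2010, 68.4 and 84.9 CPM with 2011, and a low of 60.0, a median of 80.2 and a high of 113 CPM with 2009, a log2 difference of -0.08 ± 0.08 (edgeR adjusted p = 0.579). NR3C2 had a low of 37.8, a median of 150 and a high of 164 CPM with 2010, 128 and 153 CPM with 2011, and a low of 42.3, a median of 159 and a high of 181 CPM with 2009, a log2 difference of -0.12 ± 0.15 (edgeR adjusted p = 0.642). Leaving out libraries 1 and 16, NR3C2 averaged 147 ± 16.5 CPM with 2010 (SD, n = 15) and 161 ± 10.4 CPM with 2009 (SD, n = 13), and the log2 difference of -0.13 ± 0.05 had an adjusted p of 0.0953. The other 6 members had log2 differences from -0.08 in FKBP5 to 0.14 in PDK4, with edgeR adjusted p from 0.618 to 0.902. The PDK4 difference turned to -0.08 without library 29.

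**Figure D4:**
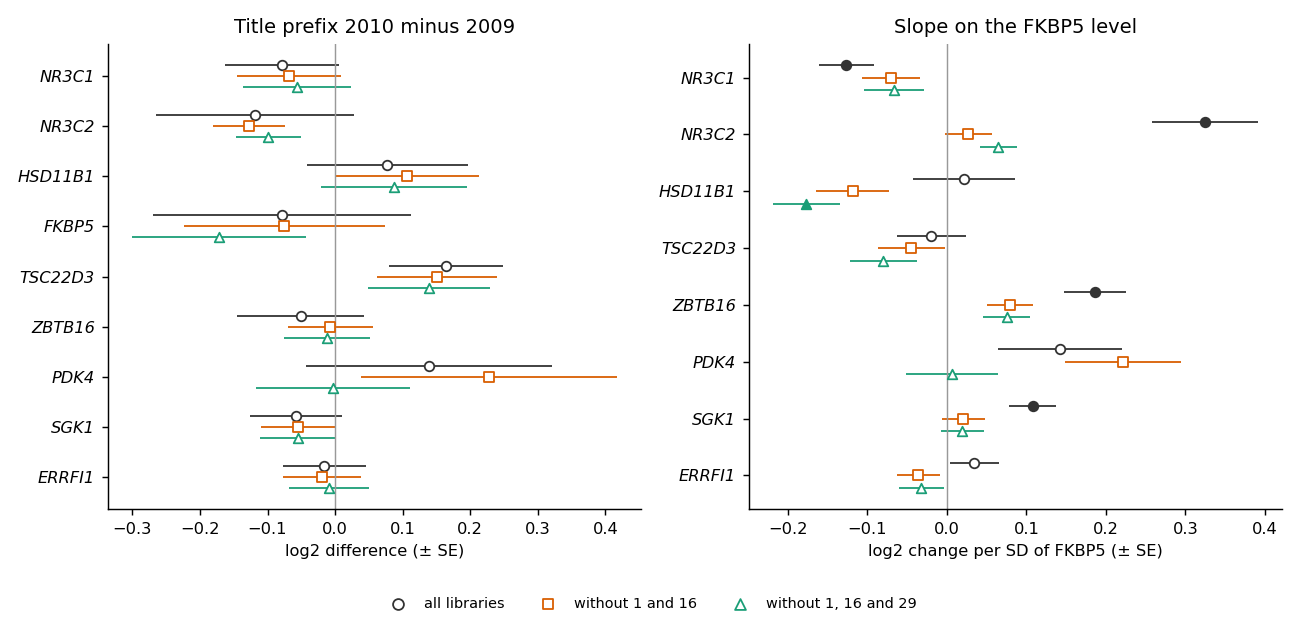
Left, log2 differences of the members between titles with 2010 and titles with 2009. Right, log2 slopes of the other 8 members per SD of FKBP5. Bars are SE, the 3 markers are all 32 libraries, those without libraries 1 and 16, and those without libraries 1, 16 and 29, and filled markers have an adjusted p under 0.05. All markers on the left are open, and the 4 filled markers for all libraries on the right (NR3C1, NR3C2, ZBTB16, SGK1) are open without libraries 1 and 16.

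Around these members, 4 further lists of the same pathway were counted in the prefix comparison, beside the 14.6% of all genes that were called. Of 29 glucocorticoid-induced genes tested, 6 were higher and 5 lower with 2010. CDKN1C, a cell cycle inhibitor, was higher with 2010 by 0.62 ± 0.14 on the log2 scale (edgeR adjusted p = 0.00381), and the lipid transporter MFSD2A averaged 51.1 CPM with 2010 and 41.3 CPM with 2009 (0.31 ± 0.07). NDRG1, known for its part in myelin, averaged 42.6 CPM with 2010 and 68.2 CPM with 2009 (-0.68 ± 0.13, edgeR adjusted p = 0.00137), and the phosphatase DUSP1, itself an immediate early gene, averaged 21.5 CPM with 2010 and 31.1 CPM with 2009 (-0.53 ± 0.13). The immediate early list (12 of 12 genes, none at 0) summed to 99.2 to 292 CPM, median 185, with 2010 and to 163 to 303 CPM, median 226, with 2009. The mature myelin list (12 of 12 genes, none at 0) summed to 2170 to 9110 CPM, median 5250, with 2010 and to 4140 to 9690 CPM, median 4690, with 2009. Their part in the differences of DUSP1 and NDRG1 was not tested.

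Of 20 receptor chaperones and coregulators, 1 was higher and 4 lower with 2010, with a median log2 difference of -0.08 against 0.00 over all genes. The 4 were chaperone partners of the receptor: PTGES3 (p23) averaged 24.4 CPM with 2010 and 30.3 CPM with 2009 (log2 difference -0.31 ± 0.06, edgeR adjusted p = 0.00112), FKBP4 123 CPM with 2010 and 149 CPM with 2009 (-0.28 ± 0.09), DNAJB1 43.6 CPM with 2010 and 51.8 CPM with 2009 (-0.25 ± 0.07) and PPID 31.2 CPM with 2010 and 37.2 CPM with 2009 (-0.25 ± 0.08). The heat shock list moved beside them, with sums of 552 to 916 CPM, median 795, with 2010 and of 484 to 1100 CPM, median 901, with 2009 (6 of 8 genes in the table, none at 0). Its part was not tested.

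Of 12 steroid-handling and stress peptide genes, 2 were higher and 1 lower. CRH, the hypothalamic releasing hormone, which hippocampal interneurons are known to make in rodents, averaged 8.72 CPM with 2010 and 6.33 CPM with 2009 (log2 difference 0.47 ± 0.15, edgeR adjusted p = 0.0301), and its binding protein CRHBP 17.3 CPM with 2010 and 11.1 CPM with 2009 (0.65 ± 0.21). Its receptor CRHR1 was lower, with 12.1 CPM with 2010 and 17.1 CPM with 2009 (-0.49 ± 0.17, edgeR adjusted p = 0.0440). None of 6 salt transport genes was called. In the fit without libraries 1 and 16, where 18.2% of all genes were called, 7 glucocorticoid-induced genes were higher and 7 lower, 5 chaperones and coregulators were lower and none higher, and 4 steroid-handling and peptide genes were higher and 1 lower. In that fit SCNN1A, a sodium channel subunit of the salt transport list, was higher. Leaving out each library in turn moved the calls over the 4 lists between 11, without library 29, and 25, without library 1, around the 19 of all libraries.

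Within titles with 2010, the 9 libraries with high title numbers were compared with the 7 with low numbers. No gene of 19959 (0%) was called by edgeR, although 2656 had an unadjusted p under 0.05, and DESeq2 called 112 genes. ERRFI1 had a low of 25.4 CPM, a median of 29.8 CPM and a high of 32.3 CPM in high-number libraries, against a low of 21.3 CPM, a median of 23.4 CPM and a high of 27.5 CPM in low-number libraries. The ranges overlap, and the log2 difference of 0.26 ± 0.07 had an edgeR adjusted p of 0.156, or 0.0942 without libraries 1 and 16, where 0.662% of all genes were called. PDK4 had a low of 12.2, a median of 19.4 and a high of 64.1 CPM in high-number libraries, against a low of 14.6, a median of 17.1 and a high of 18.8 CPM in low-number ones. Its log2 difference of 0.51 ± 0.24 (edgeR adjusted p = 0.360) was 0.13 ± 0.16 when library 29 was left out as well as libraries 1 and 16.

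The next question was which members followed FKBP5, the response gene most used as a readout of receptor activity, from animal to animal. Over 32 libraries, 4 of the other 8 members were called beside 7.13% of all genes (1424 of 19958; 43.1% of the calls rising, or 32.2% with library totals alone). NR3C2 rose by 0.32 ± 0.07 on the log2 scale per SD of FKBP5 (edgeR adjusted p = 0.00218), ZBTB16 by 0.19 ± 0.04 (edgeR adjusted p = 0.00241) and SGK1 by 0.11 ± 0.03 (edgeR adjusted p = 0.0219), and NR3C1 fell by 0.13 ± 0.04 (edgeR adjusted p = 0.0206). Without library 16 alone no member was called, and without library 1 alone NR3C1 and SGK1 were not. The NR3C1 slope was then -0.11 (edgeR adjusted p = 0.0958) and -0.10 (edgeR adjusted p = 0.134), close to its size over all libraries, while that of NR3C2 was 0.16 without library 16 (edgeR adjusted p = 0.133). Without both, 0% of 20075 genes and none of the members were called (1944 genes had an unadjusted p under 0.05), the NR3C2 slope was 0.03 ± 0.03 (edgeR adjusted p = 0.841) and the NR3C1 slope -0.07 ± 0.04 (edgeR adjusted p = 0.558). Leaving out library 29 too gave NR3C2 a slope of 0.06 ± 0.02 (edgeR adjusted p = 0.101), with r = 0.499 across 29 libraries (permutation p = 0.00466; 0.0419 adjusted over all 36 pairs of members) and rho = 0.554 (permutation p = 0.00194; 0.0349 adjusted).

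TSC22D3 was not called against FKBP5 in any of these fits, with a slope of -0.02 ± 0.04 over 32 libraries (edgeR adjusted p = 0.854). ERRFI1 had a slope of 0.03 ± 0.03 and HSD11B1 of 0.02 ± 0.06. HSD11B1 was the exception once library 29, with the highest FKBP5, was left out as well: its slope was then -0.18 ± 0.04 (edgeR adjusted p = 0.0131), the single member called where 5.02% of all genes were.

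Slopes on FKBP5 were also fitted within each title prefix. Within the 16 libraries with 2010, ZBTB16 was the single member called, with 0.29 ± 0.06 (edgeR adjusted p = 0.0220), beside 1.42% of all genes, and PDK4 had 0.36 ± 0.11 (edgeR adjusted p = 0.115). Library 16 was lowest in both FKBP5 and ZBTB16: their r was 0.796 with it (n = 16, permutation p = 0.00444; 0.0895 adjusted over the 36 pairs) and 0.433 without it (n = 15, permutation p = 0.105; 0.386 adjusted). Within the 14 libraries with 2009, where 16.5% of all genes were called, PDK4 fell by 0.18 ± 0.05 per SD of FKBP5 (edgeR adjusted p = 0.0233), NR3C1 fell by 0.14 (edgeR adjusted p = 0.0262) and NR3C2 rose by 0.39 (edgeR adjusted p = 0.00618). Library 1 carried much of these as well: without it r with FKBP5 was -0.188 for PDK4, -0.363 for NR3C1 and 0.269 for NR3C2 (n = 13; permutation p = 0.478, 0.192 and 0.375), against -0.682, -0.684 and 0.843 with it (n = 14; permutation p = 0.0192, 0.0115 and 0.0130, each 0.0987 adjusted over the 36 pairs). Over the 16 libraries with 2010 and the 14 with 2009, the PDK4 slope differed between the prefixes in a test of the difference itself. The difference was 0.54 ± 0.14 (edgeR adjusted p = 0.0431, with 1.75% of all genes called). That difference was 0.38 ± 0.15 (edgeR adjusted p = 0.732) without libraries 1 and 16, with no gene called and 1213 at an unadjusted p under 0.05. Library 29, with the highest FKBP5 and PDK4 of all, is among those with 2010, and library 1, low in FKBP5 and high in PDK4, among those with 2009.

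Of the wider pathway lists, 4 of 29 glucocorticoid-induced genes, 3 of 20 chaperones and coregulators, 1 of 12 steroid-handling and peptide genes and 0 of 6 salt transport genes were called against FKBP5 over 32 libraries, beside 7.13% of all genes. Among the glucocorticoid-induced genes the transcription factors CEBPD (0.29 ± 0.06 per SD, edgeR adjusted p = 0.000943) and KLF9 (0.11 ± 0.03) and the insulin receptor substrate IRS2 (0.18 ± 0.04) rose, and the cell cycle inhibitor CDKN1A fell by 0.25 ± 0.05. The steroid receptor coactivators NCOA1 (0.10 ± 0.02), NCOA2 (0.08 ± 0.02) and NCOA3 (0.10 ± 0.02) rose, and CRH fell by 0.22 ± 0.07. None of these was called without libraries 1 and 16. The steepest rising slope among all named genes belonged to the potassium channel gene KCNJ15 (1.12 per SD), and PENK, whose highest value lay in library 16, was among the 5 steepest falling (-0.84). Neither was called without libraries 1 and 16.

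Taking the receptor ratio in place of FKBP5 gave the same dependence. Over 32 libraries 24% of all genes were called (4781 of 19957), with FKBP5 at 0.45 ± 0.09 per SD of the log2 ratio (edgeR adjusted p = 0.000267), ZBTB16 at 0.16 ± 0.04 (edgeR adjusted p = 0.00421) and SGK1 at 0.11 ± 0.03 (edgeR adjusted p = 0.00550), all higher where the ratio was higher. Without libraries 1 and 16, 3.31% of all genes were called and none of these members.

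All 36 pairs of members were then fitted both ways round, each gene against the level of the other. Over 32 libraries 5 pairs were called in both directions, and all 5 include NR3C2 or FKBP5, in both of which libraries 1 and 16 were the lowest. Without those libraries 2 pairs were called both ways, and neither was among the 5. The level fits of single members called 0.506% (PDK4) to 26% (ERRFI1) of all genes over 32 libraries. Without libraries 1 and 16 they called 0% (FKBP5 and SGK1) to 14.7% (ERRFI1).

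TSC22D3 and HSD11B1 was the pair that kept its call under each set of libraries tried without 1 and 16. Library 5 was the highest in both, with 62.1 CPM of TSC22D3 and 18.2 CPM of HSD11B1. HSD11B1 rose by 0.18 ± 0.05 per SD of TSC22D3 over 32 libraries (edgeR adjusted p = 0.0217, beside 8.16% of all genes), while TSC22D3 against HSD11B1 missed the threshold (edgeR adjusted p = 0.0597). The slopes were 0.19 ± 0.04 (edgeR adjusted p = 0.00703, beside 8.97% of all genes) and 0.15 ± 0.04 (edgeR adjusted p = 0.00468, beside 10.3%) without libraries 1 and 16. Leaving out library 5 as well gave 0.14 ± 0.04 (edgeR adjusted p = 0.0311) and 0.13 ± 0.04 (edgeR adjusted p = 0.0190). With the title prefix in the fit the slopes were 0.18 ± 0.04 and 0.14 ± 0.04, both called.

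Across the 30 libraries Pearson's r between TSC22D3 and HSD11B1 was 0.626 (permutation p = 0.00016; 0.00576 adjusted over the 36 pairs) and Spearman's rho 0.548 (permutation p = 0.00194; 0.0698 adjusted), and r was 0.483 without the 2 libraries farthest from the TSC22D3 median. Within titles with 2010 r was 0.550 (n = 15, permutation p = 0.0347; 0.208 adjusted) and 0.317 without the 2 farthest libraries. Within titles with 2009 it was 0.604 (n = 13, permutation p = 0.0364; 0.370 adjusted) but -0.08 without the 2 farthest libraries, so there it rested on them. Of the other members, ERRFI1 and PDK4 were each tied to TSC22D3 one way only. TSC22D3 rose by 0.13 ± 0.04 per SD of ERRFI1 without libraries 1 and 16 (edgeR adjusted p = 0.0280, beside 14.7% of all genes). The fit the other way round, and both fits between ERRFI1 and HSD11B1, were not called. PDK4 rose with TSC22D3 in the same setting (r = 0.424, edgeR adjusted p = 0.0485, beside 8.97% of all genes). The reverse fit had an edgeR adjusted p of 0.22. Without library 29 too, PDK4 against TSC22D3 was not called (edgeR adjusted p = 0.0976).

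NR3C2 and PDK4 was the other pair called both ways without libraries 1 and 16. PDK4 fell by 0.34 ± 0.06 per SD of NR3C2 (edgeR adjusted p = 0.000855, beside 10.7% of all genes), with r = -0.643 (permutation p = 0.00127; 0.0229 adjusted over the 36 pairs) and rho = -0.416 (permutation p = 0.0228; 0.0952 adjusted) across 30 libraries, and r = -0.436 without the 2 farthest. That call rested on library 29, which had 64.1 CPM of PDK4 and 112 CPM of NR3C2. Without it the slope's adjusted p was 0.102, where 2.45% of all genes were called.

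**Figure D5:**
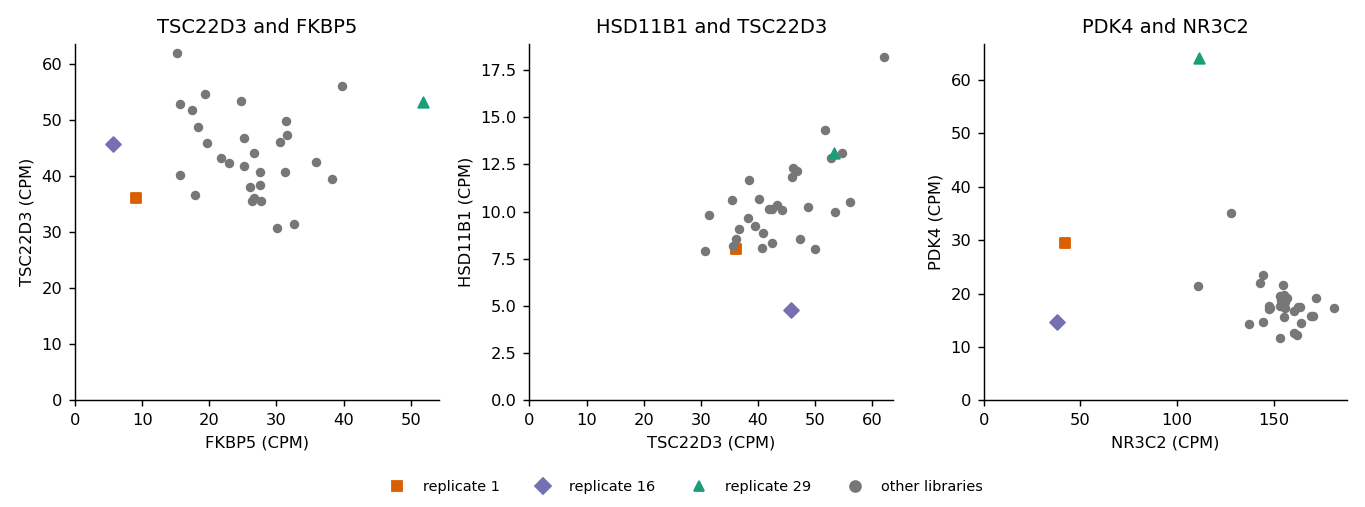
CPM of 3 pairs of members in 32 libraries, with all axes starting at 0: TSC22D3 against FKBP5, HSD11B1 against TSC22D3, and PDK4 against NR3C2. TSC22D3 shows no trend with FKBP5 (r = -0.08). HSD11B1 tends to be higher where TSC22D3 is higher (r = 0.496), with departures that include library 16 (4.77 CPM of HSD11B1) and library 14 (8.04 CPM). Library 29 lies alone at 64.1 CPM of PDK4.

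Scores of marker lists were fitted as well, to see which cell types and states moved with each member. NR3C1 rose with the immediate early score, a readout of recent neuronal activity, by 0.16 ± 0.03 per SD over 32 libraries (edgeR adjusted p = 0.000517, beside 16.1% of all genes) and by 0.14 ± 0.03 without libraries 1 and 16 (edgeR adjusted p = 0.00131, beside 19.3%). It also rose with the mature myelin score, by 0.12 ± 0.03 without libraries 1 and 16 (edgeR adjusted p = 0.0215, beside 6.34% of all genes). Both calls held without library 29 and with the title prefix in the fit. FKBP5 ran opposite to the immediate early score over 32 libraries, where it fell by 0.26 ± 0.08 (edgeR adjusted p = 0.0266), but its slope was -0.18 ± 0.07 (edgeR adjusted p = 0.0513) without libraries 1 and 16 and -0.09 (edgeR adjusted p = 0.369) without library 29 too.

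NR3C2 rose with the dentate granule score, a list score added after the data had been seen, by 0.39 ± 0.05 per SD over 32 libraries (edgeR adjusted p = 1.2e-06, beside 32.1% of all genes). Without libraries 1 and 16 the slope was 0.09 ± 0.02 (edgeR adjusted p = 0.00429, beside 23.3%), and with the title prefix also in the fit 0.08 ± 0.03 (edgeR adjusted p = 0.0560). FKBP5 ran with this score as well, with r = 0.655 over 32 libraries (permutation p = 0.0003), against 0.837 for NR3C2. Without libraries 1 and 16 r was 0.303 for FKBP5 (permutation p = 0.104) and 0.636 for NR3C2. Without library 29 too it was 0.637 for FKBP5 (permutation p = 0.00023) and 0.523 for NR3C2. HSD11B1 had a slope of 0.00 ± 0.06 on the same score over 32 libraries and fell by 0.15 ± 0.05 without libraries 1 and 16 (edgeR adjusted p = 0.0209). PDK4 rose with the endothelial score (10 of 10 genes, none at 0) by 0.31 ± 0.06 without libraries 1 and 16 (edgeR adjusted p = 0.00101, beside 12.3% of all genes), but was not called without library 29, whose endothelial sum of 653 CPM was the highest of all.

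For each member, the 3 named genes with the most similar pattern over 32 libraries were listed by Pearson's r of log2 CPM among 12917 genes, as a description. NR3C2 ran closest to the desmosomal gene PKP2 (r = 0.978) and the neurogenic transcription factors NEUROD1 (0.959) and NEUROG2 (0.956), genes in which libraries 1 and 16 set much of the pattern, since without them the first places went to ADAM11 (0.875), PKP2 (0.863) and KCNJ6 (0.826). NR3C1 ran closest to the glycogen-targeting subunit PPP1R3C both with all libraries (r = 0.843) and without that pair (0.812). FKBP5 ran closest to RHBDL3 (r = 0.848), then REPS1 (0.718) without the pair. TSC22D3 kept DYNLRB2 (r = 0.741 and 0.767) and the stress-response phosphatase regulator PPP1R15B (0.735 and 0.758) in its first places, and PDK4 kept the cytokine receptor LIFR (0.770 and 0.780) and the granule proteoglycan SRGN (0.753 and 0.758). Library 29, far the highest in PDK4, was in both settings, and likeness without it was not listed. The PDK4 level fit called 103 of 20075 genes without libraries 1 and 16, but 1 of 19964 without library 29 too. The closest genes over 32 libraries were FOSL2 for ZBTB16 (r = 0.842), NRIP3 for SGK1 (0.733), SAR1B for ERRFI1 (0.801) and SH3RF1 for HSD11B1 (0.823). Without libraries 1 and 16 all 4 left the first 3 places, and the closest were PSMF1 for ZBTB16 (0.738), RELT for SGK1 (0.558), DNAJB6 for ERRFI1 (0.785) and NRIP1 for HSD11B1 (0.842). SGK1 has no row in the RefSeq gene table and so could not be listed as a closest gene. None of the other members was among another's 3 closest genes.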

How the data were processed

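The authors deposited 1 table of raw read counts per gene for 32 hippocampal libraries. The submitters' processing notes name STAR and HTSeq; versions, genome build, annotation and strand setting are not given in the sources. Of 33999 rows, 5 count reads outside single genes and entered neither library sizes nor tests. The no-feature row held 51.3% to 67.1% of a library's reads. Symbols were matched to RefSeq (assembly mChlSab1.0.hap1), which held 20959 of the 33994 gene rows. SGK1 was not among these, so its overlap with other genes was not checked.

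From the deposited counts, TMM-scaled CPM and filterByExpr (minimum count 10, total 15, proportion 0.7) were computed with edgeR 4.0.16 in R 4.3.3. Tests used edgeR's robust quasi-likelihood test over all genes past the filter, Benjamini-Hochberg adjusted, threshold 0.05. The title comparison took the 3 prefixes as levels over all 32 libraries. Level fits took the z-scored log2 CPM (prior count 2) of 1 gene, of the log2 receptor ratio or of a list score (mean z over the list, members removed) as covariate, so slopes are per SD in the libraries fitted. Prefix slopes were compared by an interaction term, with the 2 libraries with 2011 left out. Permutation tests were two-sided with 100000 resamples, giving at least 1e-05. Scripts were checked on simulated data.

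The members and lists were chosen with earlier results of these data known. Libraries 1, 16 and 29 were singled out after values were seen, as were the dentate granule and CA pyramidal scores. Genes named beyond the members followed fixed rules: up to 4 called genes with the smallest p per list and fit, the 10 steepest rising and 5 steepest falling slopes on FKBP5 (mean CPM of at least 1), and the 3 highest r per member. The text gives part of these, some genes are not reported here, and CUX2 was named after its values were seen. Alternatives covered other scalings, filters, limma 3.58.1, DESeq2 1.42.0, covariates, subsets and each library left out in turn. Floors cover counting error only.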

Additional observations from a re-analysis of the deposited data

Results flagged for a closer look

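Within the title groups of 4 to 10 libraries, 2 libraries lay far from the rest of their group for some members. Among the 9 libraries with 2010 and high numbers, library 29 had 64.1 CPM of PDK4, against 12.2 to 23.5 CPM in the other 8. Among the 7 libraries with 2010 and low numbers, library 16 was marked as below the other 6 in 5 measures. It had 37.8 CPM of NR3C2 against 145 to 164 CPM, and 5.61 CPM of FKBP5 against 17.9 to 38.3 CPM. ZBTB16 had 45.0 CPM against 103 to 168 CPM, and HSD11B1 4.77 CPM against 9.10 to 12.2 CPM. The receptor ratio, which contains NR3C2, was 0.371 against 1.64 to 3.41. Library 16 was also the lowest of the 7 for SGK1 (53.8 against 71.0 to 92.7 CPM) and ERRFI1 (21.3 against 22.9 to 27.5 CPM), which were not marked. The gap rule used here marks about 5% of groups by chance, and 20 groups were examined. The groups with 2009 and 2011 were too large or too small for that rule, so library 1 could not be marked by it. The slope of PDK4 on FKBP5 differed between titles with 2010 and titles with 2009 by 0.536 (edgeR adjusted p = 0.0431), and by 0.383 (edgeR adjusted p = 0.732) without libraries 1 and 16.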

How the results depend on the processing

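In the comparison of titles with 2010 and 2009, no member was called under any scaling, filter, tool, covariate or subset tried, except TSC22D3 without library 5. The count of all genes called was 0 with the immature neuron score as covariate and 1143 in low-number libraries, and 2239 to 3710 with each library left out. The 4 wider lists gave 0 and 7 calls there, and 11 to 25 with each library left out. The members called were 0 to 1, and the log2 receptor ratio differed by -0.204 to 0.118, with each library left out.

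Results on FKBP5 depended on the libraries. Libraries 1 and 16 were also the 2 farthest in FKBP5, so leaving out the 2 farthest was the same fit as leaving out this pair. Genes called were 0 without libraries 1 and 16, 11 with the prefix also in the fit, 3241 with 2009 alone, 273 with 2010 alone, and 438 to 2651 with each library left out. Members called were 0 without libraries 1 and 16, with or without the prefix, 1 without library 29 too, 1 with 2010 alone, and 0 to 4 with each left out. The wider lists gave 0, 5, 16 and 2 calls without libraries 1 and 16, without 1, 16 and 29, with 2009 alone and with 2010 alone, and 0 to 13 with each left out. The PDK4 slope turned to -0.183 with 2009 alone and the HSD11B1 slope to -0.177 without libraries 1, 16 and 29.

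For the receptor ratio, without libraries 1 and 16, without 29 too, and without 1 and 16 with the prefix in the fit, genes called were 664, 608 and 1184, members called 0, 0 and 0, wider list calls 4, 3 and 5, and the SGK1 slope turned to -0.006, -0.007 and -0.009. For the number sets, DESeq2 called 112 genes, edgeR 133 without libraries 1 and 16, 128 without 29 too, and 0 to 34 with each left out; no member was called in any of these.

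Among the other 8 members' level fits, 13 slopes were called over 32 libraries, 6 without libraries 1 and 16 and 4 without 29 too. By fit, 0.506% (PDK4) to 26% (ERRFI1) of all genes were called over 32 libraries. The shares were 0% (SGK1) to 14.7% (ERRFI1) without libraries 1 and 16, and 0% to 15.8% without 29 too. Of slopes on the 8 planned scores 10 were called over 32 libraries and 2 without libraries 1, 16 and 29. Those fits called 1.73% (microglia) to 32.7% (immature neuron) of all genes over 32 libraries, and 0.0251% to 31.1% without libraries 1, 16 and 29. On the dentate granule and CA pyramidal scores 8 were called over 32 libraries, 3 without libraries 1 and 16 and 4 without 29 too. The dentate granule fit called 32.1%, 23.3% and 18.1% of all genes in these settings, and the CA pyramidal fit 4.23%, 1.3% and 2.28%. Slopes that turned were FKBP5 on NR3C2 (-0.036, libraries 1 and 16 left out, prefix in the fit), ERRFI1 on NR3C2 (-0.007) and FKBP5 on HSD11B1 (-0.234) without libraries 1, 16 and 29, SGK1 on the dentate granule score (-0.009 without 1 and 16, -0.007 without 29 too, -0.03 with the prefix) and HSD11B1 on it (-0.145 and -0.136). The cause was not tested. No paired analysis was possible because the libraries form a single group and replicate numbers, given in title order, mark no pairs.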
